A study of Homo sapiens with 16 samples.

Results

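Transcript levels of 9 genes of the death receptor and apoptosome machinery were read across 16 libraries of IMR32 cells, 12 with an siRNA against TPX2 and 4 with a control siRNA. The 9 genes are the receptors FAS, TNFRSF10A and TNFRSF10B, the decoy receptors TNFRSF10C and TNFRSF10D, the adaptor FADD, the initiator caspases CASP8 and CASP9, and the caspase platform APAF1. They were chosen by name, as 9 of the 58787 Ensembl genes in the deposited count table, and each name matched 1 row. IMR32 is a human neuroblastoma cell line with amplified MYCN, and TPX2 encodes a spindle protein that activates the mitotic kinase AURKA. Each of 3 siRNAs against TPX2 (si45, si46 and si47) was compared with a non-targeting siRNA (siNTC), with 4 replicates a group, and the column headers of the table carry a time of 48 h for every library. All 4 groups therefore share the cell line and an siRNA, no group without siRNA is used here, and a single line is the only model. The series calls the replicates biological without saying whether they were separate cultures or days, so that p-values measure the spread between these samples.

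Apoptosis can start at the cell surface or at the mitochondrion. At the surface, FAS ligand binds FAS, and TRAIL binds TNFRSF10A (TRAIL receptor DR4) and TNFRSF10B (DR5). The adaptor FADD then brings CASP8 to the receptor, while the decoys TNFRSF10C and TNFRSF10D bind TRAIL without carrying the death signal. At the mitochondrion, released cytochrome c makes APAF1 assemble into the apoptosome, which activates CASP9. Both routes lead to the effector caspases. CASP8 is often silenced by promoter methylation in neuroblastoma with amplified MYCN. TNFRSF10B, FAS and APAF1 are known transcriptional targets of the tumour suppressor p53.

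Because several of these genes are p53 targets, and because MYCN binds E-boxes, both motifs were looked for around the transcription starts in RefSeq (GRCh38.p14), in windows of 250 bases before and 50 after a start. RefSeq windows were matched for 5 of the 9 genes, 10 windows in all: 3 each for FAS and CASP8, 2 for CASP9 and 1 each for FADD and APAF1. No window was matched for TNFRSF10B or for the other TRAIL receptor genes. A p53 half-site, a motif of 10 bases that reads the same on both strands in its degenerate code, occurred in 3 of the 10 windows and in 6.63% of all 35116 windows of that length. These 3 stretches are printed because each belongs to a different gene and the 3 genes are all scarce in the counts below. Each line runs 5′ to 3′ on the gene's own strand, with the half-site in capitals.
CASP9, chr1:15524959-15524988, minus strand: cggtggcacgAGGCTAGCCCttgggggcgg
CASP8, chr2:201257904-201257933, plus strand: ctttccaataAAGCATGTCCagcgctcggg
FAS, chr10:88991299-88991328, plus strand: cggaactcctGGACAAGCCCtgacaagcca

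The first base of the half-site lay at -188 for CASP9, -121 for CASP8 and -122 for FAS, counted from the start of its own window. For each gene this was window 2 of those matched. Each stretch lies inside the annotated gene, whose outermost 5′ base is 15526534 for CASP9, 201233443 for CASP8 and 88990582 for FAS. The E-box CACGTG, which also reads the same on both strands, was in 0 of the 10 windows, against 7.26% of all windows. The windows also differed in CG dinucleotides, the sites of DNA methylation. CASP8 windows held 5, 6 and 6 of them, FAS windows 14, 18 and 22, CASP9 windows 30 and 36, the FADD window 36 and the APAF1 window 42, beside a median of 14 over all windows. Each CASP8 window thus had fewer CG dinucleotides than any window of the other 4 matched genes. FAS windows 1 and 3 overlap, and 10 windows are too few to set these genes apart from all windows. A motif match is only a description of these letters.

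Reads came from a 3′ end kit (QuantSeq), in which a transcript is read near its end whatever its length. CPM, the read count scaled to the library's size, therefore needs no length correction between genes. Whether PCR duplicates were collapsed is not given in the sources used here. So 1 read need not be 1 transcript, and ranks between genes are approximate. Total counts ran from 5318159 to 7864343 a library, with a median of 5966582, and a floor of 3 counts corresponds to 0.381 to 0.564 CPM in 1 library. A gene was tested when it passed the low-count filter, as 24.1% of the table's genes did (14193 of 58787). The targeted gene fell in all 12 knockdown libraries: TPX2 stood at 327 ± 27.1 CPM (SD, n = 4) with siNTC, 91.6 ± 19.8 with si45, 81.7 ± 14.3 with si46 and 71.5 ± 3.37 with si47. For each siRNA the two-sided exact permutation p was 0.0286, the smallest that 4 against 4 libraries allow, also after adjustment over the 3 siRNAs. Adrenergic neuroblast markers had a summed level of 4826 to 5148 CPM in the control libraries and 4953 to 5611 CPM in the knockdown libraries, with 9 of 10 tested, 1 higher (HAND2) and 1 lower (DBH) for the mean of the siRNAs, TFAP2B below the filter and TH at 8 to 29 counts. Mesenchymal or Schwann-like markers summed to 54.7 to 81.7 CPM in the controls and 44.0 to 98.2 CPM after knockdown (5 of 12 tested, 0 called at an edgeR adjusted p under 0.05, 1 at an unadjusted p under 0.05), with PRRX1 at 1 read in all. Blood and immune markers summed to at most 3.70 CPM, with 0 of 8 tested and CD3E, LYZ and HBB at 0 everywhere. In bulk RNA, fewer cells of a kind and less RNA per cell cannot be told apart.

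Of the 9 genes, 4 passed the filter (TNFRSF10B, FADD, APAF1 and FAS) and 5 did not (CASP9, CASP8, TNFRSF10A, TNFRSF10C and TNFRSF10D). For the mean of the 3 siRNAs against siNTC, edgeR called 1 of the 4 higher, TNFRSF10B, and 0 lower, at an adjusted p under 0.05. Over all tested genes 3.61% were called higher and 3.53% lower in that comparison. TNFRSF10B was also the 1 tested member called with each siRNA, where 1.01% (si45), 2.14% (si46) and 4.91% (si47) of all genes were called higher.

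**Figure D1:**
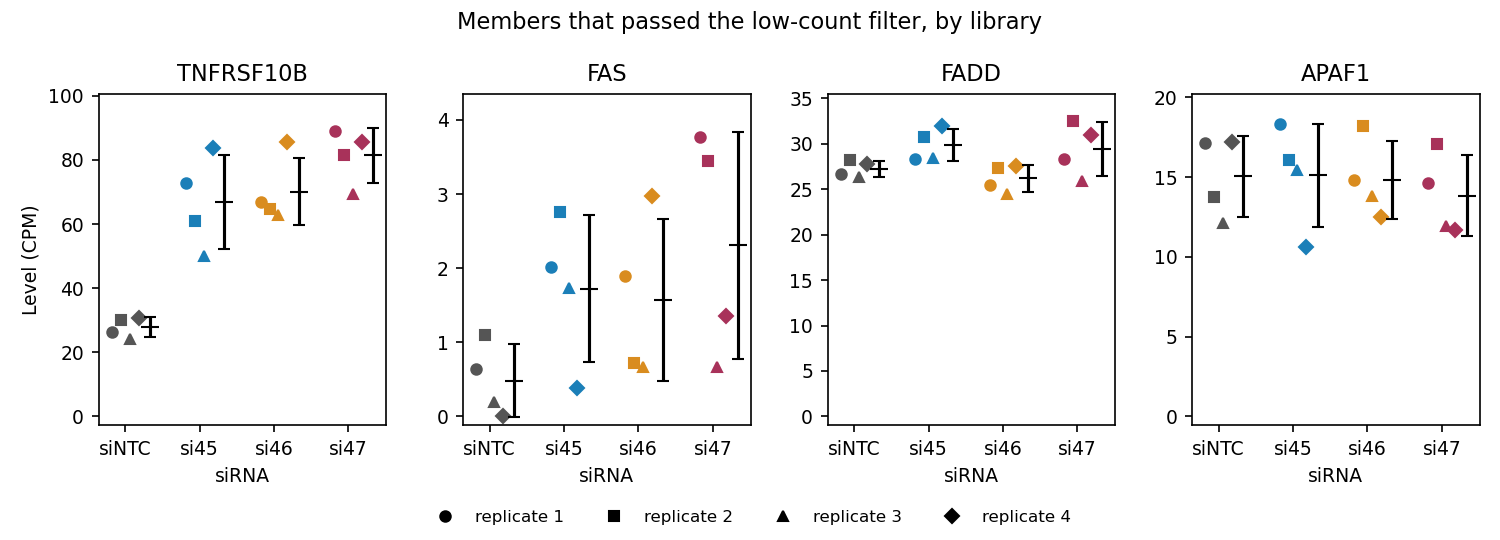
Level in CPM (vertical axis, starting near 0 and on its own scale in each panel) of the 4 genes that passed the low-count filter, by siRNA. Each marker is 1 library, its shape is the replicate number, and bars give the mean and SD of 4 libraries: TNFRSF10B lies at 24.2 to 30.7 CPM with siNTC and at 49.9 to 89.1 CPM after knockdown, while the FADD and APAF1 groups overlap the controls or lie close to them.

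TNFRSF10B was the receptor that rose. TNFRSF10B (ENSG00000120889, chromosome 8, 23020133 to 23069179, minus strand, GRCh38) encodes DR5, a TRAIL receptor with a death domain. Its level was 26.5, 30.0, 24.2 and 30.7 CPM in the 4 siNTC libraries, from 128 to 192 counts. With si45 it was 72.7, 61.0, 49.9 and 83.8 CPM. With si46 it was 67.0, 64.7, 63.0 and 85.5 CPM. Both sets lie wholly above the controls. With si47 the level was 89.1, 81.5, 69.4 and 85.5 CPM, which completes 12 of 12 knockdown libraries above all controls, a separation that 1.49% of tested genes showed. The knockdown libraries carried 288 to 567 counts of the gene, so counting error is small beside these differences.

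Group means of TNFRSF10B were 27.9 ± 3.06 CPM (SD, n = 4) with siNTC, 66.8 ± 14.6 with si45, 70.0 ± 10.4 with si46 and 81.4 ± 8.58 with si47, or 2.40, 2.52 and 2.92 times the control mean. The log2 fold change for the mean of the siRNAs was 1.38 (SE 0.120, edgeR adjusted p = 6.84e-10). Each siRNA alone gave a rise: 1.26 with si45 (SE 0.138, edgeR adjusted p = 2.23e-07), 1.33 with si46 (SE 0.138, adjusted p = 6.71e-08) and 1.54 with si47 (SE 0.138, adjusted p = 1.02e-09). In the mean comparison 1.61% of tested genes had a log2 fold change as large or larger, TNFRSF10B included. Its level over all libraries was moderate, with 23.4% of tested genes at a higher mean CPM.

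The size of the rise was not shown to differ between the siRNAs. TNFRSF10B was higher with si47 than with si45 by 0.29 on the log2 scale, with an interval of 2 standard errors from 0.03 to 0.54 (edgeR adjusted p = 0.430). Between si47 and si46 the difference was 0.22 (interval -0.04 to 0.48, adjusted p = 0.774), and between si46 and si45 it was 0.07 (interval -0.19 to 0.33, adjusted p = 0.99998). Few genes were called in these comparisons of any kind: 0.0282% for si46 against si45, 0.169% for si47 against si45 and 0.0493% for si47 against si46. Libraries of si45 and si47 with the same replicate number deviated together, and with that number as a block 398 genes were called between these siRNAs in place of 24, with TNFRSF10B at 0.30 (edgeR adjusted p = 0.0935, the lowest over the alternatives, which reached 0.744). The knockdown library with the lowest TNFRSF10B level, si45 replicate 3 at 49.9 CPM, was also the knockdown library with the most TPX2, at 121 CPM. Because that library was picked for its low TNFRSF10B, leaving it out was bound to raise the si45 change and narrow the gap to si47. The log2 change of TNFRSF10B with si45 was then 1.37 and the difference between si47 and si45 was 0.17. Whether TNFRSF10B follows TPX2 across libraries was not tested.

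**Figure D2:**
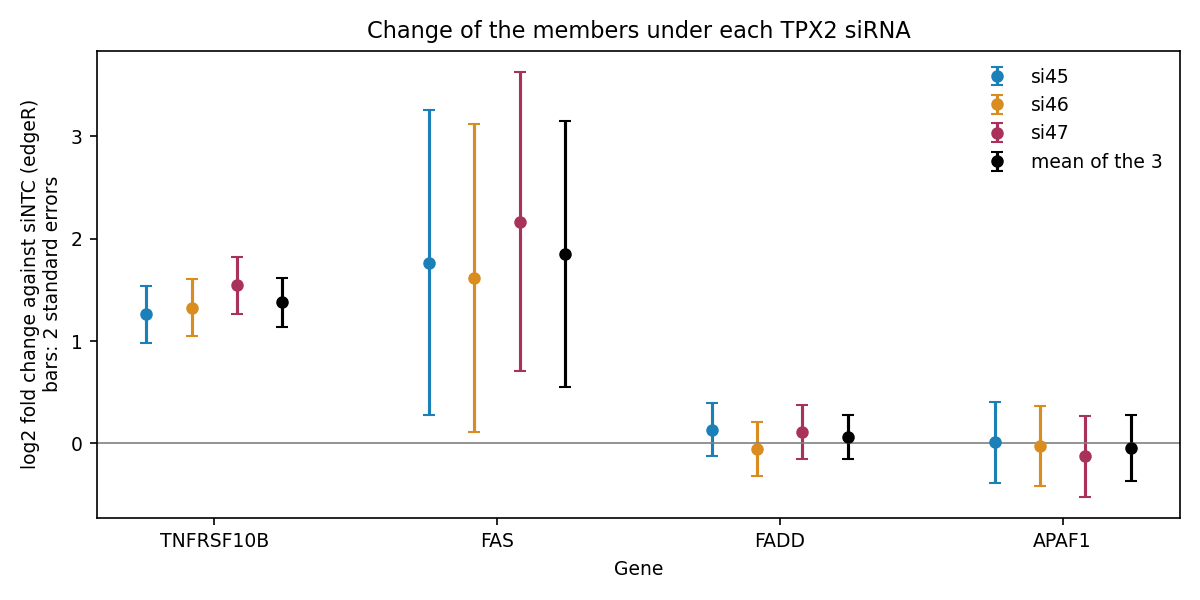
Log2 fold change against siNTC from edgeR (vertical axis) for the 4 tested members, for each siRNA and for the mean of the 3; bars span 2 standard errors either side and the line marks no change. TNFRSF10B lies between 1.26 and 1.54 with short bars, FAS between 1.62 and 2.17 with long bars, and FADD and APAF1 lie on either side of 0 or close to it.

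Among 11805 tested genes with a mean count of at least 20, the pattern most like that of TNFRSF10B over the 16 libraries belonged to BBC3, with a Pearson r of 0.976 on log2 CPM. IER5 followed with 0.966 and ACTA2 with 0.958. BBC3 encodes PUMA, a BH3-only protein that promotes cell death at the mitochondrion, IER5 is an immediate early response gene, and ACTA2 encodes smooth muscle actin. Mean levels went from 24.8 CPM with siNTC to 160 CPM over the knockdown libraries for BBC3, from 74.7 to 154 CPM for IER5 and from 0.763 to 9.61 CPM for ACTA2. These r values are a description, over libraries that fall into the same 4 siRNA groups for every gene.

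TNFRSF10B lies in a cluster with the other 3 TRAIL receptor genes, which together span 205 kb (chromosome 8, 23020133 to 23225126). Its neighbours in the cluster had few or no counts. TNFRSF10A (DR4, the other death-domain TRAIL receptor) had 5 counts in all, 1 in each of 5 of the 16 libraries. The decoys TNFRSF10C and TNFRSF10D had 0 counts in each of the 16 libraries, which over all libraries together allows up to 0.0311 CPM. By contrast TNFRSF10B had a median of 406 counts a library, and the genes flanking the cluster, RHOBTB2 and CHMP7, had 194 to 290 and 31 to 104 counts. Among the 4 TRAIL receptor genes, TNFRSF10B alone passed the low-count filter in these libraries. TNFRSF10C overlaps AC107959.5 (0 counts) and AC107959.4 (17 counts in all) on the same strand. The end of TNFRSF10A overlaps TNFRSF10A-AS1 (0 counts) on the opposite strand. Whether these overlaps lowered the counts was not tested.

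The last 67 bases of TNFRSF10B (23020133 to 23020199) overlap the end of RHOBTB2 on the opposite strand, and 3′ end reads come mostly from gene ends. Whether the counting used strand is not given in the sources used here, so reads in those bases could belong to either gene. RHOBTB2 went from 42.7 ± 6.64 CPM (SD, n = 4) with siNTC to a mean of 39.0 CPM over the knockdown libraries (log2 fold change -0.13, SE 0.120, edgeR adjusted p = 0.596), so the overlapping gene was not called and its estimate lay in the other direction.

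FAS, the receptor for FAS ligand (ENSG00000026103, chromosome 10, 88990582 to 89015785, plus strand), was detected at a few reads a library and was not called. Its counts were 4, 7, 1 and 0 with siNTC. They were 13, 18, 10 and 2 with si45, 15, 4, 4 and 16 with si46, and 24, 19, 4 and 8 with si47. High and low libraries occurred under each siRNA, and 8 of the 12 knockdown libraries were above all controls. Group means were 0.481 ± 0.490 CPM (SD, n = 4) with siNTC, 1.72 ± 0.992 with si45, 1.57 ± 1.10 with si46 and 2.31 ± 1.53 with si47, so the SD was as large as the mean with siNTC and over 0.5 of the mean in each knockdown group.

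No siNTC library reached 10 counts of FAS, the minimum count of the filter, so FAS passed only through knockdown libraries. The estimates and p-values of FAS carry that selection. The log2 fold change of FAS for the mean of the siRNAs was 1.85 (SE 0.650, unadjusted p = 0.00744, edgeR adjusted p = 0.0787). With si47 it was 2.17 (SE 0.731, edgeR adjusted p = 0.0544), with si45 1.77 (adjusted p = 0.330) and with si46 1.62 (adjusted p = 0.299). DESeq2 (adjusted p = 0.0747) and limma-voom (adjusted p = 0.105) did not call the mean change either. The call depended on the setting: with no low-count filter the edgeR adjusted p was 0.0419 for the mean and 0.0259 for si47. Leaving out si47 replicate 3 gave 0.0475 for the mean and 0.0234 for si47, and leaving out siNTC replicate 2, the control with the most FAS reads, gave a log2 fold change of 2.93 for si47 (edgeR adjusted p = 0.0353). Over all alternatives the adjusted p ran from 0.0250 to 0.242 for the mean and from 0.0223 to 0.192 for si47. Both lowest values came from edgeR with the replicate number as a block.

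FAS differed between siRNAs by 0.40 (si47 against si45), 0.55 (si47 against si46) and -0.15 (si46 against si45) on the log2 scale, with intervals of 2 standard errors from -0.85 to 1.65, -0.71 to 1.82 and -1.44 to 1.14. At this depth the 3 intervals are wide, and a difference between the siRNAs was not detectable.

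The first 758 bases of FAS (88990582 to 88991339) overlap the start of ACTA2 on the opposite strand, and the FAS half-site printed above lies in that shared stretch. ACTA2 was 1 of the 3 genes most like TNFRSF10B, and its own level was 0.763 ± 0.332 CPM (SD, n = 4) with siNTC and 4.94 to 18.1 CPM in the knockdown libraries, all 12 above all controls (log2 fold change 3.58, SE 0.359, edgeR adjusted p = 1.21e-08). With at most 1.21 CPM in a siNTC library, ACTA2 too passed the low-count filter only through knockdown libraries. The shared stretch lies at the start of both genes, while 3′ end reads come mostly from gene ends. The part of ACTA2 reads in the FAS counts was not tested.

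FADD, the adaptor that links these receptors to CASP8 (ENSG00000168040, chromosome 11, 70203163 to 70207390, plus strand), had levels close together in all libraries. They were 26.6, 28.2, 26.3 and 27.8 CPM with siNTC, and 24.4 to 32.5 CPM over the knockdown libraries. The group means were 27.2 ± 0.894 CPM (SD, n = 4) with siNTC, 29.8 ± 1.81 with si45, 26.2 ± 1.51 with si46 and 29.4 ± 2.92 with si47. The 4 si45 libraries lay above all controls, while the si46 and si47 groups overlapped them. The log2 fold change for the mean was 0.06 (SE 0.107, edgeR adjusted p = 0.803), with an interval of 2 standard errors from -0.15 to 0.28, and the siRNAs gave 0.13, -0.06 and 0.11 for si45, si46 and si47.

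APAF1, the scaffold of the apoptosome (ENSG00000120868, chromosome 12, 98645141 to 98735433, plus strand), was also at a similar level in each group. It had 17.2, 13.8, 12.1 and 17.2 CPM with siNTC and 10.6 to 18.3 CPM after knockdown. Means were 15.0 ± 2.54 CPM (SD, n = 4) with siNTC, 15.1 ± 3.25 with si45, 14.8 ± 2.44 with si46 and 13.8 ± 2.53 with si47, and all groups overlapped. The log2 fold change for the mean was -0.05 (SE 0.160, edgeR adjusted p = 0.909), with an interval from -0.37 to 0.27, and the siRNAs gave 0.01, -0.02 and -0.13 in the same order. That interval does not meet the one of TNFRSF10B, which ran from 1.14 to 1.62. The last 8977 bases of APAF1 overlap ANKS1B on the opposite strand, which had 12 to 63 counts a library and a log2 fold change of -0.08 (SE 0.301, edgeR adjusted p = 0.915).

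The initiator caspases were too low to test. CASP9, which the apoptosome activates (ENSG00000132906, chromosome 1, 15490832 to 15526534, minus strand), had 44 counts over the 16 libraries. These were 6, 0, 0 and 1 with siNTC, 5, 6, 2 and 2 with si45, 4, 5, 1 and 1 with si46, and 3, 1, 1 and 6 with si47. The groups overlapped, and in a fit with no low-count filter the estimate was 0.75 on the log2 scale (SE 0.950, edgeR adjusted p = 0.876). A standard error of that size means that a change of 2-fold was not detectable at this depth. The end of CASP9, from 15490832 to 15491400, overlaps CELA2B on the opposite strand, which had 0 counts in all libraries. Whether reads of CASP9 were lost there in counting was not tested.

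CASP8, the caspase that FADD recruits (ENSG00000064012, chromosome 2, 201233443 to 201287711, plus strand), had 0 counts in the 4 siNTC libraries, which together allow up to 0.127 CPM. After knockdown 4 of 12 libraries had a read: 2 and 1 counts in si45 replicates 1 and 2, 3 in si46 replicate 4 and 4 in si47 replicate 1. The 10 reads correspond to 0.138 CPM over the 12 libraries, so the level after knockdown was close to the limit that the controls allow. With no filter the edgeR adjusted p was 0.390.

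**Figure D3:**
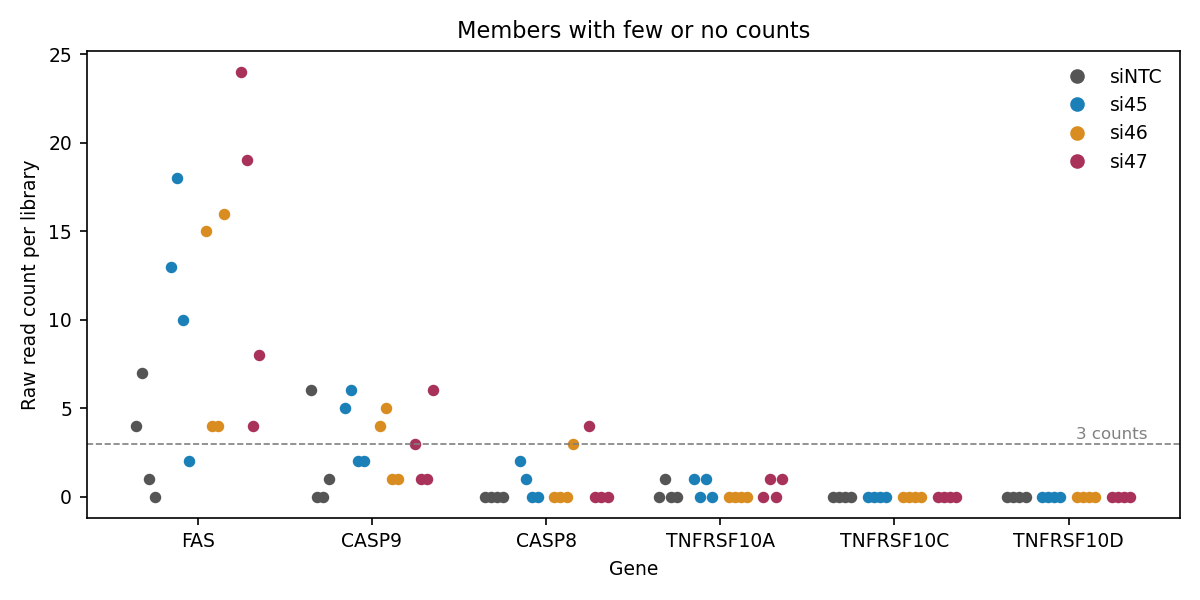
Raw read count per library (vertical axis) of FAS and of the 5 members below the low-count filter, coloured by siRNA, with 1 point a library; the dashed line is the floor of 3 counts. FAS reaches 24 counts and CASP9 6, CASP8 has no read with siNTC, and TNFRSF10C and TNFRSF10D have 0 in all 16 libraries.

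By mean level over the 16 libraries the members ranked TNFRSF10B (61.5 CPM), FADD (28.2), APAF1 (14.7), FAS (1.52), CASP9 (0.448), CASP8 (0.103) and TNFRSF10A (0.0522), with TNFRSF10C and TNFRSF10D at 0. In the siNTC libraries alone TNFRSF10B and FADD did not differ beyond their spread (24.2 to 30.7 and 26.3 to 28.2 CPM), and neither did FAS and CASP9 (0 to 1.09 and 0 to 0.962 CPM). CASP8 had 0 reads and TNFRSF10A 1 read in these 4 libraries, so that their order is not settled there. APAF1 stood apart from both sides, at 12.1 to 17.2 CPM. After knockdown the TNFRSF10B range of 49.9 to 89.1 CPM no longer met the FADD range.

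Around the members, 45 further genes of these pathways were listed, of which 31 passed the filter. For the mean of the siRNAs 0 of the 31 were called higher and 1 lower by edgeR, 4 had an unadjusted p under 0.05, and their median log2 fold change was -0.04, beside -0.00 over all genes tested. With si45 and with si46 none of the 31 was called by edgeR (3 and 2 at an unadjusted p under 0.05), and with si47 0 were higher and 1 lower (6 at an unadjusted p under 0.05). Of all tested genes, 20.4%, 11.4%, 15.0% and 23.3% had an unadjusted p under 0.05 for the mean, si45, si46 and si47. Of 14193 tested genes edgeR called 513 higher and 501 lower for the mean. The counts were 144 and 46 with si45, 304 and 178 with si46, and 697 and 685 with si47. A list this short, and the shorter ones below, can hold 0 or 1 calls at such shares, so these counts do not set them apart from other genes. The mean log2 change was smaller than 0.2 in size for 23 of the 31, beside 57.2% of all tested genes, and negative for 22 of the 31, beside 50.2%.

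**Figure D4:**
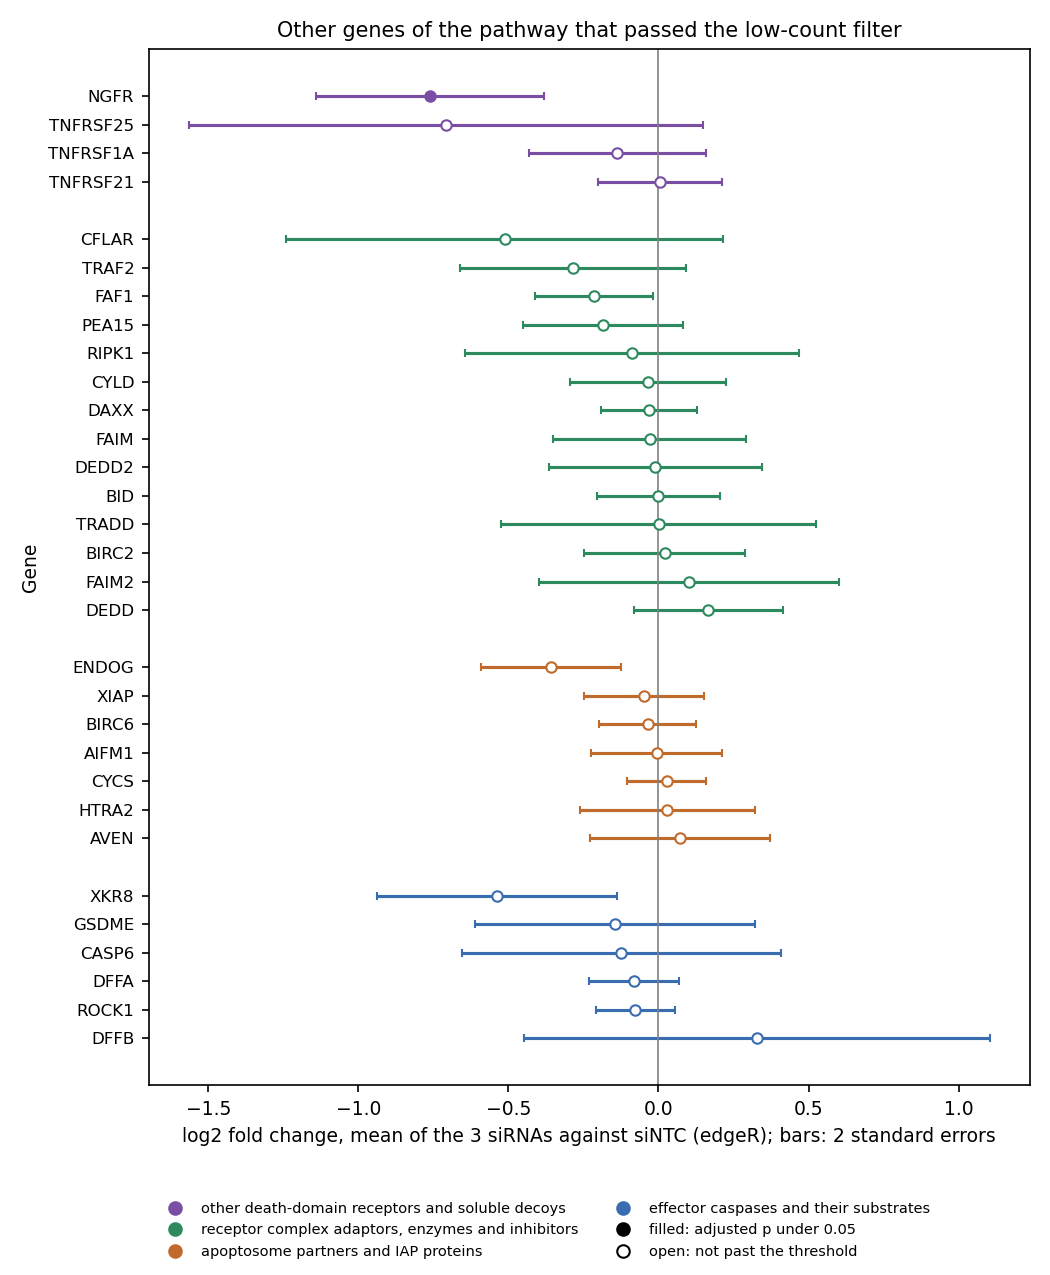
Log2 fold change for the mean of the 3 siRNAs against siNTC (horizontal axis) of the 31 pathway genes that passed the filter, coloured by list; bars span 2 standard errors either side and a filled marker is past the edgeR threshold. The estimates lie between -0.76 (NGFR, the filled marker) and 0.33 (DFFB).

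The ligands of the death receptors were at or near 0 counts in these libraries. FASLG, the FAS ligand, and TNFSF15 had 0 counts in all libraries, TNFSF10, which encodes TRAIL, had 5 counts in all, TNF had 1 and LTA 6, so that 0 of 5 ligands could be tested. The 5 TNFSF10 reads fell in 3 knockdown libraries, 1 with each siRNA. With siNTC there were 0, which over the 4 libraries together allows up to 0.127 CPM. The receptor that rose was therefore measured in cells with few or no TRAIL transcripts at this depth.

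Among 7 other receptors and soluble decoys, 4 were tested, 0 were higher and 1 was lower. NGFR, the p75 neurotrophin receptor and a death-domain receptor, fell. Its levels were 12.2, 16.4, 14.0 and 15.1 CPM with siNTC, 7.30, 7.34, 11.1 and 7.76 with si45, 7.60, 11.1, 5.89 and 11.2 with si46, and 5.66, 9.80, 6.72 and 11.0 with si47. All 12 knockdown libraries were below all controls, as for 1.03% of tested genes. The log2 fold change was -0.76 for the mean (SE 0.190, edgeR adjusted p = 0.00978) and -0.80 with si47 (adjusted p = 0.0292, in a comparison where 4.83% of genes were called lower). With si45 it was -0.79 (edgeR adjusted p = 0.111) and with si46 -0.70 (adjusted p = 0.113), both short of the threshold. Without si45 replicate 3, the si45 library with the most NGFR, the change with si45 was called (-0.95, edgeR adjusted p = 0.0368). The call for the mean was lost without siNTC replicate 2 (-0.69, edgeR adjusted p = 0.0583), and that with si47 was lost on leaving out any 1 of 5 libraries (siNTC replicates 2, 3 and 4 and si47 replicates 1 and 3). Over all alternatives the edgeR, DESeq2 or limma adjusted p ran from 0.00138 to 0.0583 for the mean and from 0.00702 to 0.130 with si47. TNFRSF21 (DR6) at 53.7 CPM with siNTC and TNFRSF1A (the main TNF receptor) at 24.3 CPM had log2 changes of 0.00 and -0.14, and neither was called.

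Of 16 adaptors, enzymes and inhibitors of the receptor complex, 14 were tested and 0 were called in any comparison with siNTC (1 at an unadjusted p under 0.05 for the mean). The most abundant were PEA15, a death-effector-domain protein, at 90.4 CPM with siNTC, DAXX, a FAS-binding protein, at 73.2 CPM, and FAF1, the FAS-associated factor, at 51.6 CPM. Their log2 fold changes for the mean were -0.19, -0.03 and -0.21. CASP10, the caspase closest to CASP8, had 7 counts in all, and BIRC3 had 3.

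Of 11 apoptosome partners and inhibitor of apoptosis proteins, 7 were tested and 0 were called (1 at an unadjusted p under 0.05 for the mean). CYCS, which encodes cytochrome c, was at 213 CPM with siNTC and BIRC6 at 102 CPM, with log2 changes of 0.03 and -0.04. ENDOG, the mitochondrial endonuclease G, went from 85.3 ± 13.1 CPM (SD, n = 4) with siNTC to 66.5 CPM over the knockdown libraries, a log2 change of -0.36 (SE 0.117, edgeR adjusted p = 0.0610). It passed the threshold with no low-count filter (edgeR adjusted p = 0.00433). It also passed without any 1 of siNTC replicate 2, si45 replicate 3 or si47 replicate 3 (adjusted p = 0.0232, 0.0169 and 0.00959). With the replicate number as a block the edgeR adjusted p was 9.59e-04, and without the 4 libraries numbered 3 it was 0.0198. Over all alternatives the adjusted p of ENDOG reached 0.224. DIABLO, an antagonist of these inhibitors, had 1 to 13 counts a library and was not tested, and BIRC7 and XAF1 had 0 counts.

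The last list, of 6 genes, held the caspase CASP6 and substrates or partners of effector caspases. All 6 were tested and 0 were called in any comparison with siNTC (1 at an unadjusted p under 0.05 for the mean). XKR8, a scramblase that caspase cleavage turns on to expose phosphatidylserine, had 10.4 to 12.5 CPM with siNTC and 3.67 to 10.6 CPM after knockdown, with 11 of 12 knockdown libraries below all controls. Its log2 change for the mean was -0.54 (SE 0.1997, edgeR adjusted p = 0.09997), and the estimates were -0.60, -0.46 and -0.55 for si45, si46 and si47. ROCK1, a kinase that caspases cleave, had a log2 change of -0.08 for the mean, and DFFA, the inhibitor of the caspase-activated nuclease, also -0.08.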

How the data were processed

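Total RNA of 16 IMR32 samples was profiled by 3′ end sequencing (QuantSeq, 15 PCR cycles, single-end reads), per the labels' protocols. The authors deposited raw counts per Ensembl gene, whole numbers with no normalization. The submitters' processing notes name FastQC 0.11.7, STAR 2.7.2b, edgeR 3.36.0, limma 3.50.3 and GRCh38. The counter, the annotation, the use of strand, the handling of reads with several matches and any collapsing of duplicates are not given in the sources used here, so overlapping genes are uncertain and intervals and floors cover counting error only. The depth was 5318159 to 7864343 counts a library, and 1 count is worth less than 0.2 CPM.

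Groups follow the siRNA named in each label, and all 16 table columns were used. A table of gene names matched 58434 identifiers, and positions came from GENCODE v29 (GRCh38). No pair of replicates agreed within sampling noise (chi-square of 3.58 to 7.42 per degree of freedom over 24 pairs). The count test was edgeR 4.0.16 (R 4.3.3) with filterByExpr (minimum count 10, minimum total 15), TMM scaling and 1 robust quasi-likelihood fit of the 4 group means, with Benjamini-Hochberg adjustment over 14193 genes in each of 7 contrasts and a threshold of 0.05. A standard error is the log2 fold change divided by the square root of F. CPM uses TMM library sizes. TPX2 was also tested by exact permutation on log2(CPM + 1). Likeness to TNFRSF10B used log2 CPM with a prior count of 2. The pipeline was tested on simulated data.

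Members, lists and tests were chosen with earlier results of these data known. Named were the 9 members, TPX2, every list gene past the threshold against siNTC, up to 3 tested genes a list with the highest CPM, and the 3 genes most like each called member. Items that the rule also covered are not reported here. RHOBTB2, ACTA2, ANKS1B and CHMP7 were added as overlapping or flanking genes, and further genes with few or no counts were named after their values were seen. Results were recomputed with upper-quartile or RLE scaling, with DESeq2 1.42.0 and with limma-voom 3.58.1. Other settings were an unfiltered fit, a minimum of 10 counts per library, a fit on the compared groups alone, a block for the replicate number, a stricter threshold of 0.01 and the omission of each library in turn; leaving out the 4 libraries numbered 3 was added after seeing the data. Same-numbered libraries had a positive r between every 2 groups, from 0.0188 (siNTC and si47) to 0.247 (si45 and si46). The r was over 0.1 in all 4 pairs only for si45 and si47 (0.120 to 0.242). Between siNTC and an siRNA it was over 0.1 in 1 or 2 of 4 pairs. This pairing was seen in the counts, no label states it, and the main fit has no term for it. Figures were drawn with matplotlib 3.10.9.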

Additional observations from a re-analysis of the deposited data

Results flagged for a closer look

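In groups of 4 libraries, 4 of 76 sets of values had a highest or lowest library far from the other 3, and chance alone flags about 1 in 20 groups, or 3.8 of 76. TPX2 stood at 121 CPM in si45 replicate 3, beside 79.4 to 85.1 CPM in the other si45 libraries. NGFR was also higher in that library, at 11.1 CPM beside 7.30 to 7.76 CPM. PEA15 reached 103 CPM in si46 replicate 3, beside 74.8 to 75.8 CPM. In the other groups PEA15 was also highest in replicate 3, at 107 CPM with siNTC, 105 with si45 and 97.3 with si47. CYCS was lowest in siNTC replicate 2, at 195 CPM beside 217 to 222 CPM. No set of values of the 4 tested members was among these.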

How the results depend on the processing

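TNFRSF10B kept its direction and its call in 99 of 99 alternatives against siNTC (log2 fold change 1.13 to 1.61, highest adjusted p 2.36e-05), and FADD and APAF1 were called in 0 of 198. FAS stayed positive in 92 alternatives (1.16 to 2.93) and passed the threshold in 7. Tested members called numbered 2 in place of 1 with no low-count filter and with the replicate block, for the mean and for si47, the second being FAS (replicate block: 1.94, adjusted p = 0.0250 for the mean, and 2.17, adjusted p = 0.0223 for si47). Leaving out 1 library gave 1 to 2 for both comparisons.

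Counts of all genes called moved more. With the replicate block they were 1817 for the mean (1014 without it), 577 for si45 (190), 1073 for si46 (482), 2198 for si47 (1382), 33 for si46 against si45 (4), 398 for si47 against si45 (24) and 108 for si47 against si46 (7). The block also gave calls for ENDOG and XKR8 (mean, adjusted p = 9.59e-04 and 0.0429) and for NGFR with si45 and si46 (adjusted p = 0.0342 and 0.0382). Of 16 libraries, 14 correlated best with their own number, a hint from the data and not from the design. At a threshold of 0.01 the counts were 440, 96, 189 and 673 against siNTC and 8 for si47 against si45. No filter gave 356 for si45 and 14, 166 and 44 between siRNAs, in the order above, and DESeq2 gave 11, 150 and 33. With only the groups compared, si47 against si46 gave 4. Without the 4 libraries numbered 3, si45 gave 379 and si47 against si45 77. Leaving out 1 library gave 629 to 1388 for the mean, 97 to 406 for si45, 252 to 579 for si46, 932 to 1664 for si47, 4 to 7 for si46 against si45, 10 to 147 for si47 against si45 and 2 to 23 for si47 against si46. The highest counts came without si45 replicate 3 or si47 replicate 3 for all but si46 against si45. The lowest came without siNTC replicate 1 for the mean, and without si45 replicate 1, si46 replicate 2, si47 replicate 1, si45 replicate 4 and si46 replicate 3 for si45, si46, si47, si47 against si45 and si47 against si46; si46 against si45 reached 7 without si46 replicate 1. The cause of these shifts was not tested.

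Among the named genes, signs turned for these changes, none of them called. Without the libraries numbered 3 the log2 change was -0.093 for TNFRSF21 (mean), -0.089 for APAF1 (si45), and 0.091 for FAS and -0.0021 for TNFRSF10B between si46 and si45; APAF1 was -0.0054 with si45 in the replicate block. Ranges on leaving out 1 library were -0.14 to 0.021, -0.088 to 0.14 and -0.13 to 0.044 for APAF1 (mean, si45 and si46), -0.085 to 0.10 for TNFRSF21, -0.082 to 0.0038 for DAXX, -0.0096 to 0.046 for CYCS and -0.085 to 0.024 for BIRC6 (mean). Between si46 and si45 they were -0.61 to 0.16 for FAS and -0.049 to 0.19 for TNFRSF10B. RLE, upper-quartile and DESeq2 scaling moved the median of all genes by less than 0.01. Depth limits FAS, with 0 to 24 counts a library, and CASP8 and CASP9, with at most 4 and 6.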
